A study of Mus musculus with 6 samples.

Results

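The genes described here are the ligands and receptors of the interleukin, tumour necrosis factor (TNF) and colony-stimulating factor (CSF) systems, 100 of the 30821 genes in the authors' deposited comparison table. The rule reads only gene names, although it and its exceptions were written with earlier results of these data known. Members are the protein-coding genes whose symbol starts with Il, Tnfsf or Tnfrsf and a digit, or with Csf1, Csf2 or Csf3, together with Tnf. Of 106 such genes, 6 are not members by the rule (Il6st, Il6ra, Il2rb, Tnfrsf1a, Tnfrsf17 and Csf1r). The 100 comprise 40 ligands, 52 receptors or receptor chains, 7 antagonists or binding proteins, and the enzyme gene Il4i1, whose symbol fits the pattern.

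RNA was sequenced from whole hippocampus of 6 male mice of the C57BL/6J strain, with 1 mouse per library. In the 3 TAF15 OE mice an adeno-associated virus, AAV-CaMKIIα-TAF15, had been delivered stereotaxically to CA1 on both sides at the age of 8 weeks, and the 3 Control mice had received a control virus in the same way. The sample titles give 31 days for all 6 mice. TAF15 is an RNA-binding protein, and the CaMKIIα promoter is active in excitatory neurons. The transgene was therefore directed to excitatory neurons of an injected region, whereas the RNA came from all cells of the tissue. No source used here gives what the control virus carried.

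Cytokines of these families are secreted or membrane-bound proteins that carry signals between immune cells, glia and neurons. Many interleukin receptors and some CSF receptors act through JAK kinases and STAT factors. Receptors of the IL-1, IL-17 and TNF families act through adaptor proteins and the factor NF-kB. Soluble antagonists and decoy receptors limit these signals. In healthy brain, microglia depend on the CSF1 receptor and its ligands Csf1 and Il34, astrocytes and oligodendrocytes hold IL-33, and most other interleukins are scarce.

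Taf15 had 3897, 3661 and 4477 raw counts in TAF15 OE 1, 2 and 3, against 908, 958 and 795 in Control 1, 2 and 3. The libraries held between 14965464 and 16067000 counts. Along the second principal component (21.7% of the variance) TAF15 OE 1 and Control 1 lay apart from the other 4 libraries. The choroid plexus transcript Ttr had 21226, 62963 and 73754 counts in TAF15 OE 1, 2 and 3, against 1315, 64427 and 57622 in Control 1, 2 and 3. Cd74, the chaperone of MHC class II molecules, had 8792, 900 and 1938 counts in TAF15 OE 1, 2 and 3, against 245, 213 and 233 in Control 1, 2 and 3. TAF15 OE 1 thus stood out for Cd74 and both libraries for Ttr. Counts beyond these are given as CPM, the normalised read count relative to the scaled library total.

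Markers of several cell types that carry cytokine receptors moved with the groups. The summed level of 11 microglia markers was between 881 and 1279 CPM in TAF15 OE, against 448 to 494 CPM in Control, and 10 of the 11 were called higher. The T cell list summed to 38.5, 15.6 and 18.9 CPM in TAF15 OE 1, 2 and 3, against 7.74, 7.49 and 7.93 CPM in Control 1, 2 and 3. Of its 10 genes 8 were tested and 7 rose, and Cd3d was at 0 in Control 3. The B and plasma cell list summed to between 76.4 and 176 CPM in TAF15 OE, against 6.83 to 32.7 CPM in Control, and 4 of 6 tested genes rose. In Control 2 and Control 3, 2 genes and 1 gene of that list were at 0. The list of monocytes and neutrophils reached between 8.35 and 14.2 CPM in TAF15 OE, against 3.20 to 4.35 CPM in Control, with 1 of 3 tested genes higher and between 1 and 4 of its 10 genes at 0 in each library. The NK cell list reached between 3.03 and 4.47 CPM in TAF15 OE, against 1.06 to 1.60 CPM in Control, with 1 of 2 tested genes higher and between 2 and 4 of its 7 genes at 0. The 10 markers of activated microglia summed to between 4451 and 4906 CPM in TAF15 OE, against 2105 to 2442 CPM in Control, and 8 rose. The 6 oligodendrocyte markers summed to between 5959 and 7746 CPM in TAF15 OE, against 4848 to 5214 CPM in Control, and 5 rose. Of 7 astrocyte markers 6 rose. The 8 neuronal markers, all detected in every library, summed to between 8376 and 9480 CPM in TAF15 OE, against 10791 to 12763 CPM in Control, and 5 fell. Over all genes tested, 9.32% rose and 5.95% fell. The part of these shifts in the cytokine and receptor results was not tested, and in bulk tissue fewer cells of a type cannot be told apart from less RNA per cell.

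**Figure D1:**
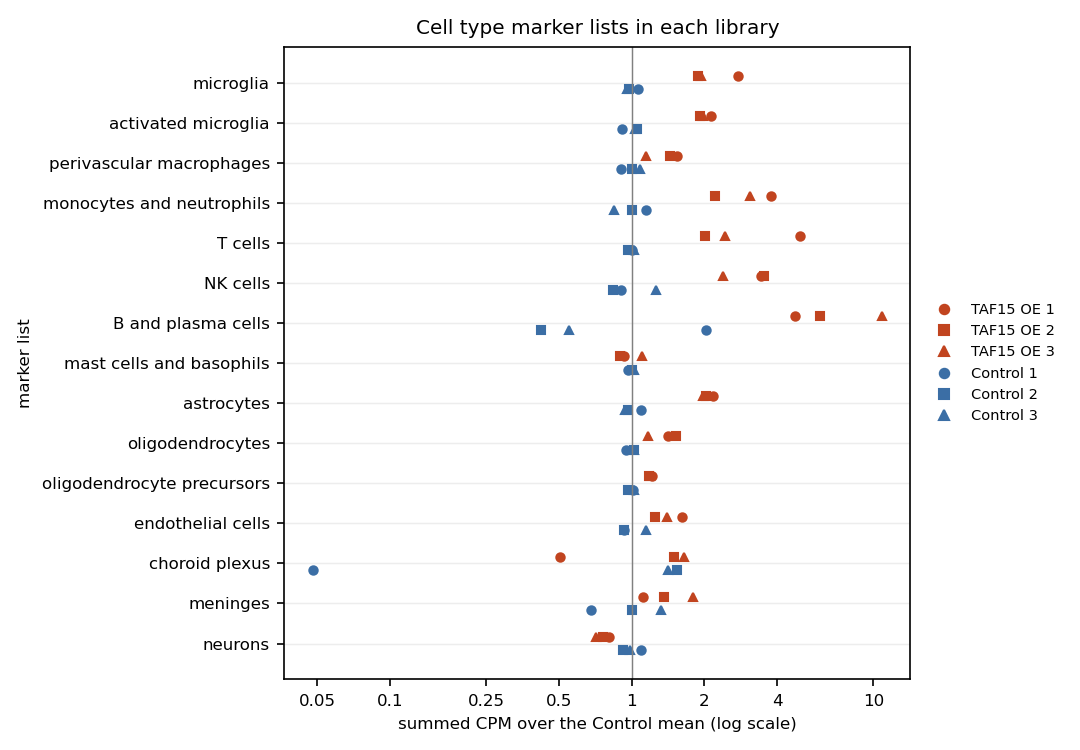
Summed CPM of 15 cell type marker lists in each library, divided by the mean of the 3 Control libraries (log axis); red symbols are TAF15 OE and blue symbols Control libraries. TAF15 OE 1 has the highest T cell sum (38.5 CPM) and Control 1 the lowest choroid plexus sum (146 CPM).

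Most of the changes were rises, and receptors made up the larger number of them. Of the 100 members, 62 passed the filter on low counts and were tested between TAF15 OE and Control. By edgeR's quasi-likelihood test, at a Benjamini-Hochberg adjusted p below 0.05 over all 16758 genes tested, 23 members were called higher (9.32% of all genes tested were) and 1 was called lower (5.95% of all genes tested were). The other 38 tested members did not pass. The median log2 fold change, TAF15 OE over Control, was 0.68 over the 62 members and 0.03 over all genes tested. Among the 62, all 3 TAF15 OE libraries lay above all 3 Control libraries in 36 members (19.1% of all genes) and below them in 3 (15.5% of all genes). The filter admitted 4 members, Il18r1, Il18rap, Tnfsf8 and Il2ra, that were under its limit of 0.656 CPM in every Control library. They so entered through TAF15 OE. All 4 are among the 36 members without overlap and enter the median of 0.68, where they are no support for a difference. Of the other 58 tested members, 20 were called higher and 1 lower.

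Ligands and receptors differed in how many could be measured. Of 40 ligands 14 were tested, and 5 of these were higher and 1 lower. Of 52 receptors 44 were tested and 17 were higher. Of 7 antagonists or binding proteins 4 were tested and 1 was higher, and Il4i1 was not tested. By family, the TNF family had 9 of 21 tested members higher, the group of the common gamma chain and IL-13 5 of 9, the IL-1 family 4 of 11, the CSF and common beta chain group 3 of 7 and the IL-10 family 2 of 3. None of 6 tested members of the IL-17 family and none of 4 of the IL-6 and IL-12 families passed. The counts of higher members include Il18r1 and Il18rap (IL-1 family receptors) and Tnfsf8 (TNF family ligand), which passed the filter only through TAF15 OE. Il2ra, tested and not called, entered in the same way.

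**Figure D2:**
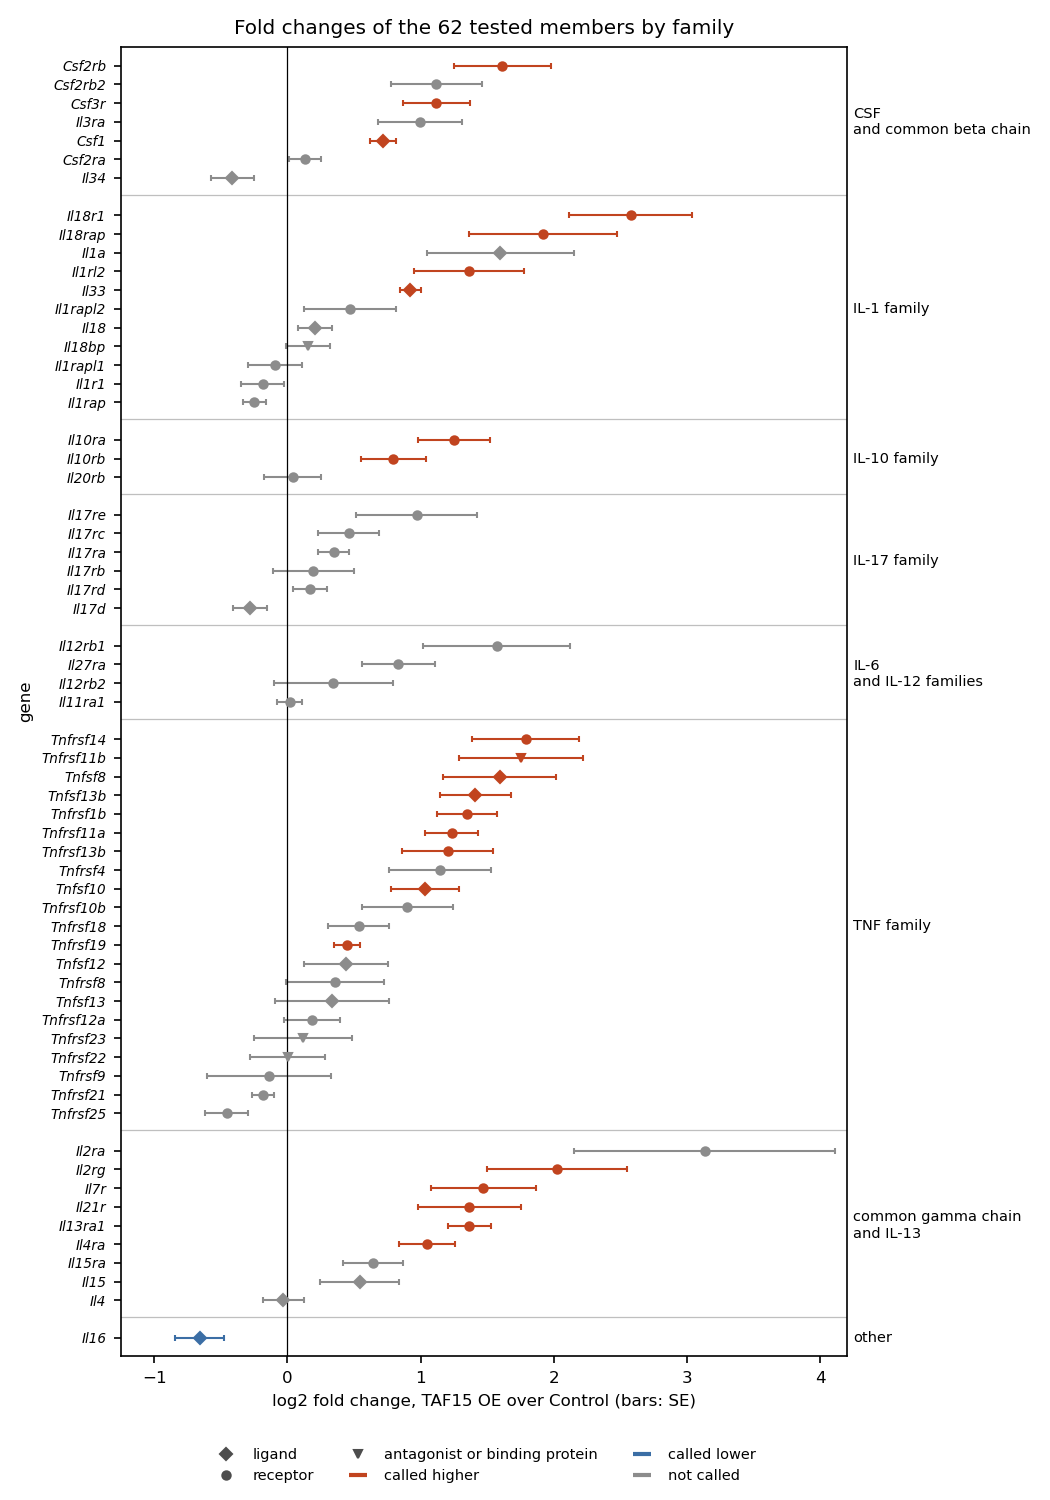
Log2 fold change (TAF15 OE over Control) of the 62 tested members by family, with bars of 1 standard error; symbol shapes give the role, and red, blue and grey mark members called higher, called lower and not called. The called members run between -0.66 (Il16) and 2.58 (Il18r1).

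Among the ligands, Il33 had the smallest adjusted p of all members. Il33 encodes a nuclear alarmin of the IL-1 family that signals through the ST2 receptor when released. It (ENSMUSG00000024810, chromosome 19, 29925114 to 29960718, plus strand, GRCm38) had 92.0, 94.3 and 91.2 CPM in TAF15 OE 1, 2 and 3, against 44.9, 53.4 and 48.0 CPM in Control 1, 2 and 3. The 3 TAF15 OE libraries were nearly equal and all well above Control. The level was 1.90-fold higher, at 92.5 ± 1.58 CPM in TAF15 OE and 48.8 ± 4.30 CPM in Control (mean ± SD here and below, with n = 3 per group). Its log2 fold change was 0.92 (SE 0.078, adjusted p = 7.40e-05). Its receptor gene Il1rl1 was under the filter, with 10, 2 and 6 raw counts in TAF15 OE 1, 2 and 3, against 1 count in each Control library.

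Csf1, the growth factor of microglia and macrophages, rose 1.65-fold. Csf1 (ENSMUSG00000014599, chromosome 3, 107741048 to 107760469, minus strand) had 62.7, 52.6 and 61.8 CPM in TAF15 OE 1, 2 and 3, against 33.4, 34.4 and 39.7 CPM in Control 1, 2 and 3. All TAF15 OE libraries lay above all Control libraries, and the log2 fold change was 0.72 (SE 0.098, adjusted p = 0.00132). Il34, the other ligand of the CSF1 receptor and in brain a product of neurons, had 39.1, 26.0 and 24.9 CPM in TAF15 OE 1, 2 and 3, against 42.7, 37.7 and 39.5 CPM in Control 1, 2 and 3. Its groups overlapped only through TAF15 OE 1. For Il34 the log2 fold change was -0.41 (SE 0.16, adjusted p = 0.132), and without TAF15 OE 1 it was -0.67 (adjusted p = 0.00132). Il34 was also called lower without the filter (adjusted p = 0.000599), with DESeq2 (0.0434) and with the replicate number as a block (0.0170).

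The promoter of Csf1 is shown because it holds the recognition motif of NF-kB, the factor that IL-1 and TNF receptors activate. For 78 of the 100 members RefSeq (GRCm38.p6) gave at least 1 promoter, and the 250 bases before each start were searched on both strands for 4 motifs. These were the NF-kB motif, the STAT motif GAS (TTCNNNGAA), the interferon-response motif ISRE (GAAANNGAAA) and the motif of the myeloid factor PU.1 (GAGGAAG). The NF-kB motif was present for 11 of the 78 members (14.1%) and for 8.23% of all genes with a promoter. GAS was present for 11 members (14.1%) and 8.13% of all, PU.1 for 15 members (19.2%) and 12.0% of all, and ISRE for 5 members (6.41%) and 3.46% of all. Of 19 members called higher with a promoter, 2 held NF-kB (10.5%), 3 GAS (15.8%), 4 PU.1 (21.1%) and 3 ISRE (15.8%). Of 30 tested members that were not called, 5 held NF-kB (16.7%), 5 GAS (16.7%), 7 PU.1 (23.3%) and 1 ISRE (3.33%), so the first 3 motifs were no more frequent among the members called higher. The 19 include Il18r1 (GAS and PU.1), Il18rap (PU.1) and Tnfsf8 (none of the 4 motifs), which passed the filter only through TAF15 OE. Il2ra, among the 30 and with NF-kB, passed it in the same way. A match of letters is a description and does not show that a factor binds. The Csf1 window is chr3:107760470-107760719, written 5′ to 3′ along the minus strand, with the NF-kB match in capitals at -154 to -145 from the gene's start.
Csf1: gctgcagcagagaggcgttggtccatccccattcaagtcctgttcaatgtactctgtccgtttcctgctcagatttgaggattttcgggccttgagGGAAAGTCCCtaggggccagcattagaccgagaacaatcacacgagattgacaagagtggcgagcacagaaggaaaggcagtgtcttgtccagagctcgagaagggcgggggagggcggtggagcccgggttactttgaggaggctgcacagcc

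In the TNF family 3 ligands were called higher, each without overlap between groups. Tnfsf13b, the B cell survival factor BAFF (ENSMUSG00000031497, chromosome 8, 10006467 to 10039072, plus strand), had 4.98, 4.34 and 3.88 CPM in TAF15 OE 1, 2 and 3, against 1.15, 2.06 and 1.73 CPM in Control 1, 2 and 3. The lowest TAF15 OE library thus lay well above the highest Control library, and the log2 fold change was 1.41 (SE 0.27, adjusted p = 0.00605). Tnfsf10, the death ligand TRAIL, averaged 8.07 ± 1.64 CPM in TAF15 OE and 3.94 ± 1.26 CPM in Control and rose by 1.03 in log2 units (SE 0.25, adjusted p = 0.0199). Tnfsf8, the ligand of CD30, averaged 1.63 ± 0.703 CPM in TAF15 OE and 0.535 ± 0.110 CPM in Control. The log2 difference was 1.59 (SE 0.42, adjusted p = 0.0274). Tnfsf8 passed the filter only through TAF15 OE, so its call and lack of overlap are no support for a difference. The call of Tnfsf10 was lost without TAF15 OE 3, Control 1 or Control 2 (adjusted p of 0.0562 to 0.0734), and that of Tnfsf8 without any library except TAF15 OE 3 (adjusted p of 0.0621 to 0.10).

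Il16 was the only member called lower. Il16 encodes a precursor of a chemoattractant that binds CD4, and a longer form is known from neurons of mouse brain. Il16 (ENSMUSG00000001741, chromosome 7, 83642825 to 83745726, minus strand) had 24.0, 16.3 and 17.6 CPM in TAF15 OE 1, 2 and 3, against 37.7, 25.5 and 28.2 CPM in Control 1, 2 and 3. All TAF15 OE libraries lay below all Control libraries, with TAF15 OE 1 and Control 1 the highest of their groups. On the log2 scale the change was -0.66 (SE 0.18, adjusted p = 0.0441). The call was lost without TAF15 OE 2, TAF15 OE 3, Control 1 or Control 3 (adjusted p of 0.0839 to 0.144), and 15.3% of its exon bases are shared with Stard5 on the other strand, and without a stated strand setting the reads of the pair cannot be told apart.

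The classical proinflammatory ligands were scarce or did not pass. Il1a had 2.81, 1.25 and 1.27 CPM in TAF15 OE 1, 2 and 3, against 0.883, 0.730 and 0.133 CPM in Control 1, 2 and 3. Its groups did not overlap, but at a log2 fold change of 1.60 (SE 0.55) the test was not passed (adjusted p = 0.0797). Il1a passed without the filter (adjusted p = 0.00419) and with the replicate block (0.0239). Il18, which inflammasome caspases activate, averaged 15.8 ± 1.86 CPM in TAF15 OE and 13.7 ± 1.21 CPM in Control (log2 fold change 0.21, SE 0.13, adjusted p = 0.324). Tnf had 11, 8 and 3 raw counts in TAF15 OE 1, 2 and 3, against 3, 1 and 4 in Control 1, 2 and 3, and Il1b had 20, 4 and 10 raw counts in TAF15 OE, against 6, 6 and 7 in Control. Both genes overlapped between groups. Il6 had 1, 3 and 1 raw counts in TAF15 OE 1, 2 and 3, against 0 in every Control library, and Il10, an anti-inflammatory ligand, had 2, 0 and 0 raw counts in TAF15 OE, against 0, 0 and 1 in Control. Tnf, Il1b, Il6 and Il10 were under the filter, and none of them passed when tested without it.

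Of the soluble or decoy members, only Tnfrsf11b passed. Tnfrsf11b encodes osteoprotegerin, a secreted decoy for RANKL and TRAIL. It had 1.66, 2.63 and 2.55 CPM in TAF15 OE 1, 2 and 3, against 1.29, 0.398 and 0.333 CPM in Control 1, 2 and 3. Control 1 came close to TAF15 OE 1, but the groups did not overlap, and the log2 fold change was 1.75 (SE 0.46, adjusted p = 0.0277). Without Control 1 it was 2.61 (adjusted p = 0.00745), and the call was lost without TAF15 OE 2, TAF15 OE 3, Control 2 or Control 3 (adjusted p of 0.0801 to 0.113). Il18bp, which traps IL-18, had a log2 fold change of 0.15 (adjusted p = 0.593). The receptor antagonist gene Il1rn had 36, 2 and 6 raw counts in TAF15 OE 1, 2 and 3, against 4, 4 and 8 in Control 1, 2 and 3, so that only TAF15 OE 1 was high. Il18bp and Il1rn were named after their values were seen.

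Among receptors of the CSF group, the beta chain and the G-CSF receptor rose. Csf3r, the receptor of the granulocyte factor G-CSF, had 49.8, 25.8 and 29.0 CPM in TAF15 OE 1, 2 and 3, against 16.8, 15.5 and 15.9 CPM in Control 1, 2 and 3. Csf2rb, the signalling chain shared by the receptors of GM-CSF, IL-3 and IL-5, had 16.1, 6.05 and 7.83 CPM in TAF15 OE 1, 2 and 3, against 3.53, 3.05 and 3.20 CPM in Control 1, 2 and 3. In both genes Control was tight and TAF15 OE 1 lay far above the other TAF15 OE libraries. The log2 fold change was 1.12 for Csf3r (SE 0.25, adjusted p = 0.0306) and 1.61 for Csf2rb (SE 0.36, adjusted p = 0.0229). Csf2rb2, the mouse beta chain specific to IL-3, averaged 7.03 ± 3.32 CPM in TAF15 OE and 3.23 ± 0.880 CPM in Control without overlap and did not pass (1.12, SE 0.34, adjusted p = 0.0579). Csf2ra, the ligand-binding chain for GM-CSF, averaged 40.8 ± 7.13 CPM in TAF15 OE and 37.2 ± 2.22 CPM in Control (0.13, SE 0.12, adjusted p = 0.511). Without TAF15 OE 1 its fold change was -0.03. The calls of Csf2rb and Csf3r were lost without any 1 Control library (adjusted p of 0.0829 to 0.110), and with limma-voom (0.0679 for Csf2rb and 0.0566 for Csf3r). Csf2rb2 passed without TAF15 OE 3 (adjusted p = 0.0455), with total counts (0.0492), with DESeq2 (0.0131) and without the filter (4.14e-05). Csf2rb and Csf2rb2 are near-identical copies, so the split of reads between them is uncertain.

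Both chains of the IL-18 receptor were called higher, but each passed the filter only through TAF15 OE, so that their calls are no support for a difference and the values are given as a description. Il18r1, the chain that binds IL-18 (ENSMUSG00000026070, chromosome 1, 40465552 to 40500854, plus strand), had 2.56, 1.78 and 1.40 CPM in TAF15 OE 1, 2 and 3, against 0.136, 0.332 and 0.466 CPM in Control 1, 2 and 3. The fitted ratio was 5.98-fold, with all TAF15 OE libraries above all Control libraries (log2 fold change 2.58, SE 0.46, adjusted p = 0.00468). Its partner Il18rap had 1.47, 0.723 and 0.910 CPM in TAF15 OE 1, 2 and 3, against 0.0679, 0.332 and 0.400 CPM in Control 1, 2 and 3 (log2 fold change 1.92, SE 0.56, adjusted p = 0.0390). The groups of Il18rap did not overlap either. Il1rl2, the receptor of the IL-36 cytokines, averaged 2.88 ± 1.55 CPM in TAF15 OE and 1.11 ± 0.373 CPM in Control and rose by 1.36 (SE 0.41, adjusted p = 0.0471). The call of Il18rap was lost without any 1 library (adjusted p of 0.0659 to 0.126), and that of Il1rl2 without any except TAF15 OE 3 (adjusted p of 0.0576 to 0.176). Il1rl2 also missed the threshold with DESeq2 size factors (0.0527) and limma-voom (0.0751). The 250 bases before Il18rap, chr1:40515112-40515361 on the plus strand, are shown because they hold the PU.1 motif at a pair of places, -94 to -88 and -79 to -73, in capitals.
Il18rap: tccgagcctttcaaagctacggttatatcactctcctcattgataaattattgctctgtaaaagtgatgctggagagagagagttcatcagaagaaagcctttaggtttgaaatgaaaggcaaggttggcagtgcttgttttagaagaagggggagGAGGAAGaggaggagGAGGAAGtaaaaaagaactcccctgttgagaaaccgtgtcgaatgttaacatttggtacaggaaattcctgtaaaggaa

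The receptor chains of IL-1 itself did not pass in either direction in the edgeR test with the filter and all libraries. Il1r1, the signalling receptor of IL-1, averaged 17.8 ± 1.72 CPM in TAF15 OE and 20.2 ± 4.83 CPM in Control (log2 fold change -0.19, SE 0.16, adjusted p = 0.492). Il1rap, the accessory chain shared by receptors of IL-1, IL-33 and IL-36, averaged 61.7 ± 3.57 CPM in TAF15 OE and 73.2 ± 6.52 CPM in Control. Its groups did not overlap, and it missed the threshold (log2 fold change -0.25, SE 0.084, adjusted p = 0.0713). Without the filter Il1rap was called lower (-0.28, adjusted p = 0.0184). Il1rapl1, a relative that acts as a synaptic adhesion protein of neurons, averaged 10.2 ± 2.68 CPM in TAF15 OE and 10.9 ± 1.61 CPM in Control (-0.09, SE 0.20, adjusted p = 0.807). Without TAF15 OE 1 (0.08) or Control 2 (0.01) its fold change was positive. Il1r1 and Il1rap were named after their values were seen.

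Both chains of the IL-10 receptor, through which IL-10 restrains myeloid cells, were higher. Il10ra had 27.1, 12.9 and 15.7 CPM in TAF15 OE 1, 2 and 3, against 7.88, 7.16 and 8.33 CPM in Control 1, 2 and 3. TAF15 OE 1 was again the highest, and the log2 fold change was 1.25 (SE 0.27, adjusted p = 0.0205). Il10rb, a chain shared with receptors of related cytokines, averaged 7.32 ± 0.70 CPM in TAF15 OE and 4.21 ± 1.44 CPM in Control and rose by 0.80 (SE 0.25, adjusted p = 0.0487). The call of Il10ra was lost without any 1 Control library (adjusted p of 0.0644 to 0.0874), and that of Il10rb without any library except Control 3 (adjusted p of 0.0933 to 0.136). Il10rb also missed the threshold with DESeq2 size factors (0.0549) and with the filter at a mean of 1 CPM (0.0515). Il10rb shares 14.9% of its exon bases with Gm21970 on the same strand.

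Il4ra and Il13ra1, which together form the receptor of IL-4 and IL-13 outside lymphocytes, rose. Il13ra1 (ENSMUSG00000017057, chromosome X, 36112110 to 36171259, plus strand) had 15.7, 13.4 and 19.4 CPM in TAF15 OE 1, 2 and 3, against 6.18, 5.97 and 6.66 CPM in Control 1, 2 and 3. The separation was wide, with TAF15 OE 3 the highest, and the rise was 2.58-fold (log2 fold change 1.37, SE 0.16, adjusted p = 6.18e-04). Il4ra (ENSMUSG00000030748, chromosome 7, 125552120 to 125579474, plus strand) had 14.4, 9.34 and 10.3 CPM in TAF15 OE 1, 2 and 3, against 4.41, 5.17 and 6.80 CPM in Control 1, 2 and 3. The groups did not overlap, and the log2 fold change was 1.05 (SE 0.21, adjusted p = 0.00828). Il4ra shares 9.51% of its exon bases with Gm44876 on the other strand. Il13, a ligand of the pair, had at most 3 raw counts in any library. Il4 had 159, 125 and 179 raw counts in TAF15 OE 1, 2 and 3, against 160, 154 and 132 in Control 1, 2 and 3 (log2 fold change -0.03, adjusted p = 0.927). The annotated Il4 gene (GENCODE M21) ends in an exon 1014 bases beyond the end of Kif3a, which lies on the other strand, and the source of the Il4 counts was not tested. Il4 and Il13 were named after their values were seen.

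Receptor chains best known from lymphocytes were low and rose most in TAF15 OE 1. Il2rg, the common gamma chain of the receptors of IL-2, IL-4, IL-7, IL-15 and IL-21, had 6.26, 1.71 and 2.43 CPM in TAF15 OE 1, 2 and 3, against 0.543, 0.995 and 0.999 CPM in Control 1, 2 and 3. Il21r, the IL-21 receptor of lymphocytes, had 10.8, 4.21 and 4.37 CPM in TAF15 OE 1, 2 and 3, against 2.58, 2.85 and 2.07 CPM in Control 1, 2 and 3. In both genes TAF15 OE 1 lay far above the other TAF15 OE libraries. The log2 fold change was 2.02 for Il2rg (SE 0.52, adjusted p = 0.0318) and 1.37 for Il21r (SE 0.39, adjusted p = 0.0452), and without TAF15 OE 1 it was 1.26 (adjusted p = 0.0494) and 0.75 (adjusted p = 0.0682) in that order. The calls of Il2rg and Il21r were also lost without any 1 Control library (adjusted p of 0.0891 to 0.148) and with limma-voom (0.0800 for Il2rg and 0.102 for Il21r), and that of Il21r with DESeq2 size factors (0.0516). Il2rg shares 30.5% of its exon bases with Gm20489 on the same strand. Il2ra, the high-affinity IL-2 receptor chain of activated and regulatory T cells, had 4.15, 0.657 and 0.668 CPM in TAF15 OE 1, 2 and 3, against 0.136, 0.332 and 0.133 CPM in Control 1, 2 and 3. Il2ra passed the filter only through TAF15 OE, so its results are given as a description and are no support for a difference. Its fold change was the largest of all tested members (log2 3.13, SE 0.98) but did not pass (adjusted p = 0.0742). It passed without TAF15 OE 2 (adjusted p = 0.0479) or TAF15 OE 3 (adjusted p = 0.0425), with DESeq2 (0.00305), with the replicate block (0.0141) and without the filter (2.89e-07), and without TAF15 OE 1 its log2 fold change was 1.66 (adjusted p = 0.105). T cell markers were likewise highest in TAF15 OE 1, as were the lists of microglia (1279, 881 and 908 CPM in TAF15 OE 1, 2 and 3) and activated microglia. Among the TAF15 OE libraries the B and plasma cell list was lowest in TAF15 OE 1 (76.4, 97.0 and 176 CPM in TAF15 OE 1, 2 and 3). The part of any of these cell types in these values was not tested.

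Il7r, the receptor of the lymphocyte survival factor IL-7, rose more evenly. It had 3.13, 1.97 and 2.55 CPM in TAF15 OE 1, 2 and 3, against 1.09, 1.26 and 0.400 CPM in Control 1, 2 and 3. The groups did not overlap, and the log2 fold change was 1.47 (SE 0.39, adjusted p = 0.0276). The call was lost without any 1 library except Control 2 (adjusted p of 0.0516 to 0.0756). The window before Il7r, chr15:9529877-9530126 on the minus strand, is shown for its GAS motif at -142 to -134, in capitals.
Il7r: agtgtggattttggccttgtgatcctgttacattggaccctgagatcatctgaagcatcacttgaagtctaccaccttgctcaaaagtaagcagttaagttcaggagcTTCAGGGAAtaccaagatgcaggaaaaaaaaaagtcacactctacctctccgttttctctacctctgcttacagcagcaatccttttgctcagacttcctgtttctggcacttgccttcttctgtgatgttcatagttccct

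In the TNF receptor family, Tnfrsf1b and Tnfrsf11a rose in every setting that left out 1 library. Tnfrsf1b encodes TNFR2, the TNF receptor of microglia and other immune cells (ENSMUSG00000028599, chromosome 4, 145213463 to 145246870, minus strand). It had 21.9, 13.5 and 14.0 CPM in TAF15 OE 1, 2 and 3, against 7.0, 4.91 and 7.46 CPM in Control 1, 2 and 3. Tnfrsf11a encodes RANK, the receptor of Tnfsf11 (ENSMUSG00000026321, chromosome 1, 105780718 to 105847981, plus strand). It had 5.94, 6.64 and 6.80 CPM in TAF15 OE 1, 2 and 3, against 2.38, 2.92 and 2.93 CPM in Control 1, 2 and 3. The groups of both genes were apart, and in Tnfrsf11a, as in Tnfrsf11b, TAF15 OE 1 was the lowest TAF15 OE library. The log2 fold change was 1.35 for Tnfrsf1b (SE 0.22, adjusted p = 0.00472) and 1.23 for Tnfrsf11a (SE 0.20, adjusted p = 0.00293). The 250 bases before Tnfrsf1b, chr4:145246871-145247120 on the minus strand, are shown because they hold 3 of the motifs, in capitals. In order they are PU.1 at -208 to -202, GAS at -181 to -173 and ISRE at -10 to -1.
Tnfrsf1b: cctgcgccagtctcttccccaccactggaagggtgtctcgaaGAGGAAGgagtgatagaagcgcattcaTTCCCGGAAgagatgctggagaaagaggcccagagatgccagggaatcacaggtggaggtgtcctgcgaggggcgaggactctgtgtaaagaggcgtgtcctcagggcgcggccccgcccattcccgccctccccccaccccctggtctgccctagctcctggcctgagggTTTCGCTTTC

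A further 3 TNF receptors were called higher. Tnfrsf19 (TROY), a receptor of neural progenitors and glia, was abundant and rose 1.36-fold, at 92.3 ± 10.7 CPM in TAF15 OE and 67.7 ± 6.73 CPM in Control (log2 fold change 0.45, SE 0.099, adjusted p = 0.0133). Tnfrsf14 (HVEM), a lymphocyte co-signalling receptor, had 4.60, 2.04 and 2.43 CPM in TAF15 OE 1, 2 and 3, against 0.543, 1.19 and 0.866 CPM in Control 1, 2 and 3 (1.79, SE 0.41, adjusted p = 0.0140). Tnfrsf13b (TACI), a receptor of BAFF on B cells, had 6.26, 3.22 and 5.34 CPM in TAF15 OE 1, 2 and 3, against 2.38, 1.19 and 2.87 CPM in Control 1, 2 and 3 (1.20, SE 0.34, adjusted p = 0.0379). In all 3 genes the groups did not overlap. Tnfrsf4 (OX40), a co-stimulatory receptor of T cells, averaged 1.83 ± 0.560 CPM in TAF15 OE and 0.826 ± 0.301 CPM in Control, also without overlap, and did not pass (1.14, SE 0.38, adjusted p = 0.0676), although it did without the filter (0.0490) and with the replicate block (0.0474). Calls were lost without Control 2 for Tnfrsf19 (adjusted p = 0.0542), without Control 1 or Control 3 for Tnfrsf14 (0.0526 and 0.0522), and without TAF15 OE 1, TAF15 OE 3, Control 1 or Control 2 for Tnfrsf13b (0.0898 to 0.112).

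**Figure D3:**
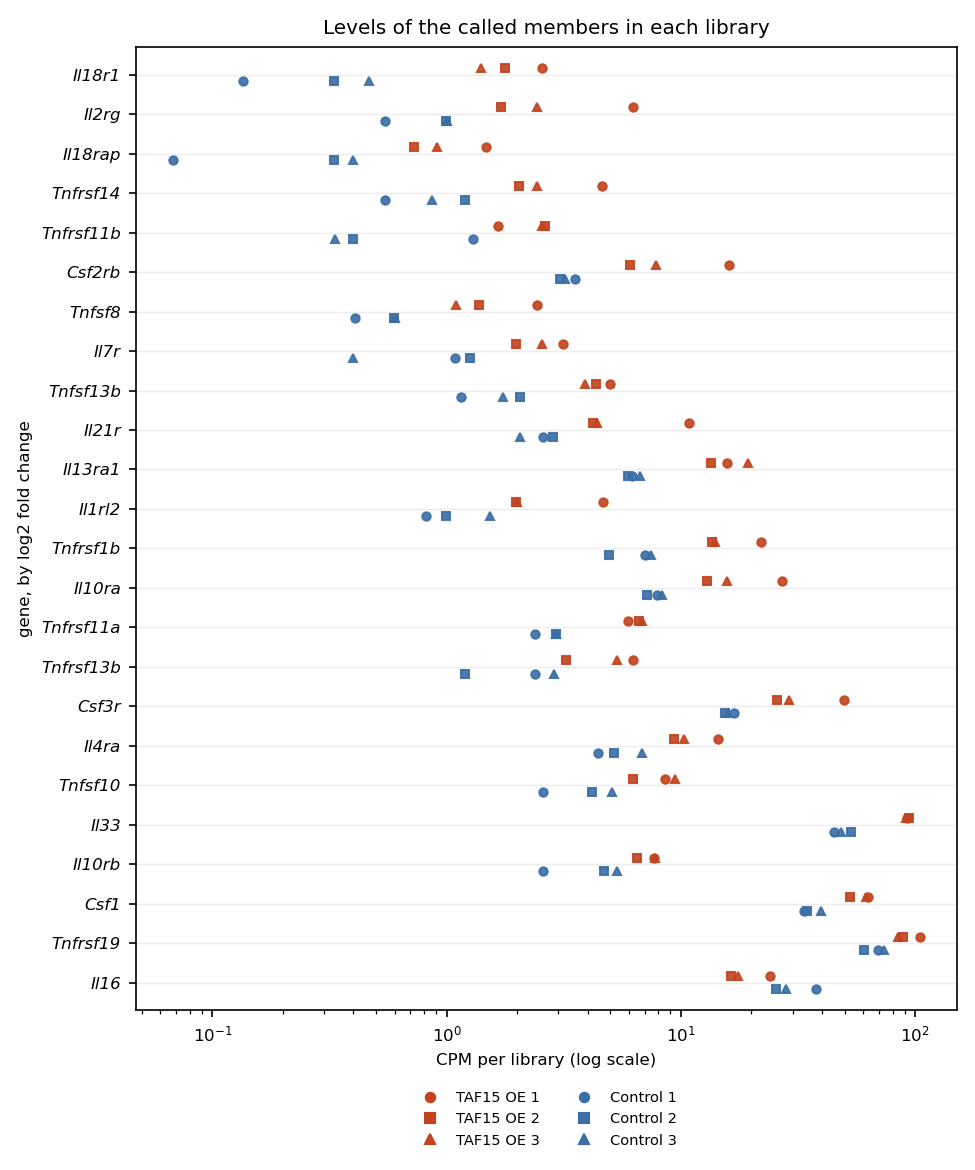
Level of the 24 called members in each library, in CPM on a log axis, ordered by log2 fold change; red symbols are TAF15 OE and blue symbols Control. TAF15 OE 1 is the highest library for 17 of the 23 members called higher, and Il33 shows nearly equal levels in the 3 TAF15 OE libraries (91.2 to 94.3 CPM).

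Set on a scale per gene length, the most abundant members were mostly not the ones that rose most. In FPKM (fragments relative to gene length and to the library total), the deposited levels averaged 41.1 ± 3.12 in TAF15 OE and 45.3 ± 2.84 in Control for Tnfrsf21 (DR6, a death receptor of neurons). Il33 had 32.5 ± 0.645 FPKM in TAF15 OE and 16.6 ± 1.75 FPKM in Control, second only in TAF15 OE, since Il34 and Csf2ra lay above it in Control. Csf2ra had 22.4 ± 3.70 FPKM in TAF15 OE and 19.8 ± 1.53 FPKM in Control, and Il34 had 15.5 ± 3.88 FPKM in TAF15 OE and 20.03 ± 0.908 FPKM in Control. Tnfrsf19 had 19.7 ± 2.05 FPKM in TAF15 OE and 14.0 ± 1.29 FPKM in Control, and Il18 had 15.6 ± 1.89 FPKM in TAF15 OE and 13.1 ± 1.34 FPKM in Control. In Control, the levels of Csf2ra and Il34 did not differ beyond their spread, nor did those of Tnfrsf19 and Il18. At the other end, Il18r1 reached 0.401 ± 0.119 FPKM in TAF15 OE and 0.0638 ± 0.0345 FPKM in Control, and Il18rap 0.155 ± 0.0564 FPKM in TAF15 OE and 0.0390 ± 0.0259 FPKM in Control. Tnfrsf21 was named after its values were seen.

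Genes of signalling by these receptors, and of the activation of their ligands, were counted in 4 lists. Beside them, 9.32% of all genes tested rose, with a median log2 fold change of 0.03. Of 20 TNF receptor adaptors and kinases 8 rose, with a list median of 0.42 on the log2 scale. They were the apoptosis regulator genes Birc3 (1.53), Casp8 (0.98) and Cflar (0.73), the adaptor and kinase genes Traf5 (1.18), Ripk1 (0.48), Tab2 (0.33) and Tank (0.32), and Adam17 (0.65), whose protease sheds TNF. Of 13 NF-kB subunits and inhibitors 5 rose (median 0.46): Bcl3 (1.70), Nfkbie (0.99), Nfkb1 (0.56), Rela (0.46) and Chuk (0.24). Of 12 tested JAK, STAT and SOCS genes outside STAT3 4 rose (median 0.37), namely Stat5a (1.06), Stat6 (1.03), which IL-4 and IL-13 receptors activate, Jak3 (0.87), the kinase bound to the common gamma chain, and Stat5b (0.53). Of 13 tested genes of the list of IL-1 and IL-18 receptor signalling 3 rose (median 0.78): the inflammasome genes Nlrp3 (1.20), Casp1 (1.07) and Gsdmd (1.30). Inflammasome genes act in the activation and release of the ligands, and no receptor adaptor or kinase gene of that list was called. No gene of the 4 lists was called lower. Without any 1 library, Birc3, Casp8, Cflar, Adam17, Bcl3, Stat5b and Stat6 were still called; Tank and Chuk lost the call without each of the 6 libraries (adjusted p of 0.0618 to 0.162). The other calls were lost at adjusted p of 0.0505 to 0.149 without TAF15 OE 1 for Traf5, Ripk1, Tab2, Rela, Nfkbie, Stat5a and Nlrp3, without TAF15 OE 2 for Traf5, Ripk1, Tab2 and Nlrp3, and without TAF15 OE 3 for Ripk1, Rela, Jak3 and Casp1. Calls were lost without Control 1 for Traf5, Ripk1, Rela, Nfkbie, Jak3 and Stat5a. Without Control 2 they were lost for Traf5, Ripk1, Tab2, Nfkb1, Nfkbie, Jak3, Stat5a, Casp1, Nlrp3 and Gsdmd, and without Control 3 for Traf5, Nfkbie, Jak3, Stat5a, Casp1, Nlrp3 and Gsdmd.

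The 38 members under the filter had at most 36 counts in any library. Their summed raw counts were 247, 116 and 144 in TAF15 OE 1, 2 and 3, against 92, 79 and 82 in Control 1, 2 and 3. Of the 38, 26 had more counts in TAF15 OE, 7 had fewer and 5 had equal numbers, while 5 had no count in Control and 1 had none in TAF15 OE. Il12b, a subunit of IL-12 and IL-23, had 33, 2 and 0 counts in TAF15 OE 1, 2 and 3, against 0, 0 and 3 in Control 1, 2 and 3. Tnfsf11 (RANKL), the ligand of RANK, had 12, 3 and 1 counts in TAF15 OE 1, 2 and 3, against 0 in each Control library. Most of both sums came from TAF15 OE 1. Tested without the filter, Il12b (adjusted p = 0.0426) and Tnfsf11 (0.00913) passed, and their fitted fold changes, which depend on the prior count, are not given. Both had few or no counts in Control, and the groups of Il12b overlapped. Their passes without the filter are therefore no support for a difference. Il12b and Tnfsf11 were named after their values were seen.

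**Figure D4:**
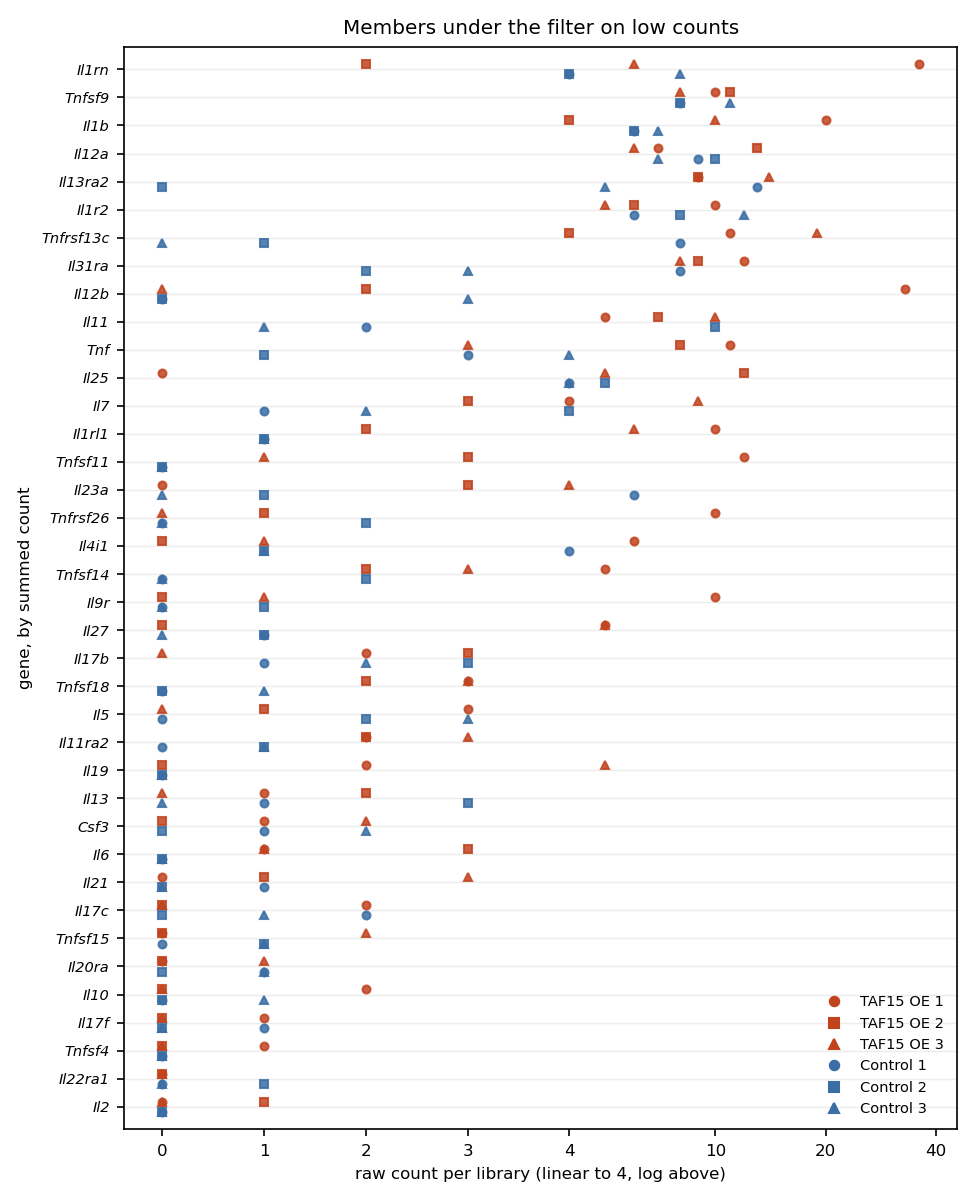
Raw counts of the 38 members under the filter in each library (axis linear to 4 and logarithmic above), ordered by summed count; red symbols are TAF15 OE and blue symbols Control. The highest count is 36 (Il1rn in TAF15 OE 1), and Il12b reaches 33 in the same library.

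TAF15 OE 1 was the highest of the 6 libraries for 17 of the 23 members called higher (73.9%, against 55% of all genes called higher). Over the 62 tested members, the median difference from the Control mean was 0.89, 0.60 and 0.64 on the log2 scale in TAF15 OE 1, 2 and 3, against -0.10, 0.05 and 0.10 in Control 1, 2 and 3. The 62 include the 4 members that passed the filter only through TAF15 OE. Without TAF15 OE 1, 16 members were called higher and 4 lower (7.56% and 7.06% of all genes tested). The fold change was then smaller in 21 of the 23 members called higher, and their median log2 fold change was 1.06, against 1.36 with all libraries. Calls were lost for Il18rap, Il1rl2, Il10rb, Tnfsf8, Tnfrsf13b, Il7r and Il21r. Beside Il34, the death receptor genes Tnfrsf25 (log2 fold change -0.63, adjusted p = 0.0153) and Tnfrsf21 (-0.28, adjusted p = 0.0375) were then called lower, and Tnfrsf25 was also called lower with all libraries and no filter (-0.48, adjusted p = 0.00117). Without both TAF15 OE 1 and Control 1, 13 members were called higher and 3 lower (7.05% and 5.99% of all genes tested), and the calls of Tnfsf10 (adjusted p = 0.0532), Tnfrsf14 (0.0751) and Il2rg (0.101) were lost in addition. With any 1 library left out, 8 of the 24 members stayed called: Csf1, Il33, Tnfsf13b, Il18r1, Il13ra1, Il4ra, Tnfrsf1b and Tnfrsf11a. Of these, Il18r1 passed the filter only through TAF15 OE, so that its call is no support for a difference. The share of all called genes that stayed called in this way is not given here, so 8 of 24 cannot be compared with it.

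**Figure D5:**
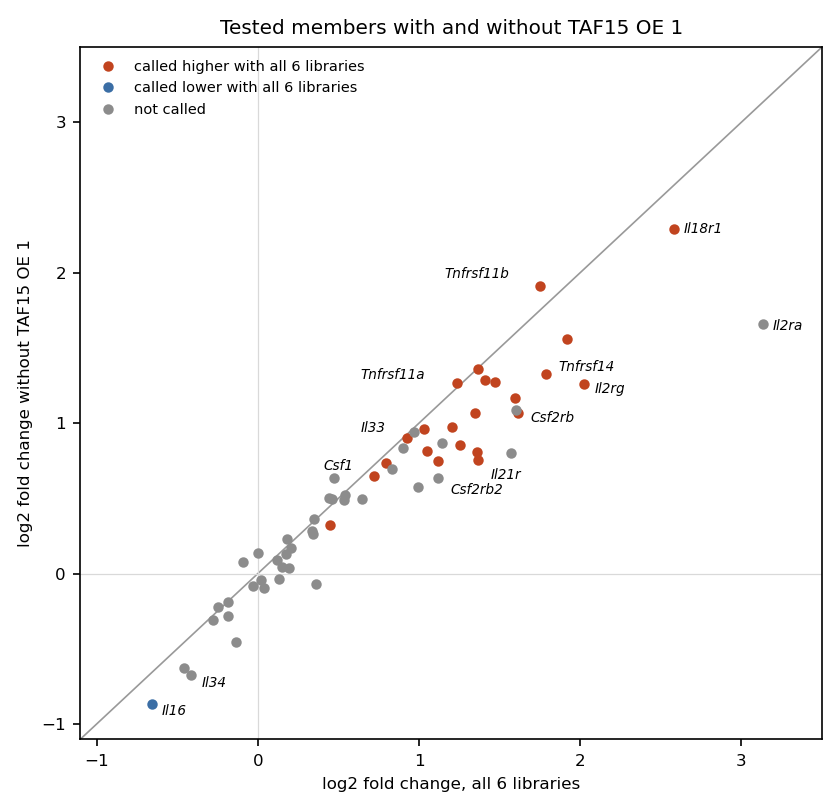
Log2 fold change (TAF15 OE over Control) of the tested members without TAF15 OE 1 (vertical axis) against that with all 6 libraries (horizontal axis); colours mark the call with all libraries and the diagonal marks equal values. Il2ra (1.66 without and 3.13 with TAF15 OE 1) lies farthest below the diagonal, while Il33 and Il13ra1 lie close to it.

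In the authors' deposited table, 20 of the 100 members are marked significant and up (1.72% of its 30821 genes are) and none is marked significant and down (0.0876% are). No adjusted p is given there for 34 of the 100 members. All members are protein-coding but only 18058 of the 30821 genes are, so the shares are not over like sets. In that table every marked gene has an adjusted p below 0.05 and an absolute log2 fold change of at least 1. A further 4 members are lower there with an adjusted p below 0.05 but miss the limit on the fold change. They are Il16 (adjusted p = 0.00225), Tnfrsf25 (0.0358), Il34 (0.0446) and Il1rap (0.0477). The authors' deposited table marks Csf2rb2, Il12rb1 and Il2ra, which the edgeR test did not call, and leaves 6 of the 23 members called higher unmarked. Of these, Csf1, Il33, Il10rb and Tnfrsf19 have log2 fold changes below 1 in the authors' deposited table, while Il18rap (0.0809) and Tnfsf8 (0.0502) miss on its adjusted p.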

How the data were processed

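Raw counts per Ensembl gene were deposited by the authors as whole numbers. The authors also deposited FPKM values and a comparison table with a normalised signal (mean size-factor-scaled count), the fold change (a ratio, and its log2), and a p-value with its adjusted p-value from a test that is not named. The submitters' processing notes name HISAT2 2.1.0, TopHat2, Bowtie2 2.2.3, CASAVA and build GRCm38. For the counter, annotation and strand setting nothing was given in the sources used here, as far as labels and headers go. The labels give no batch and 1 mouse per library.

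Counts were tested in R 4.3.3 with edgeR 4.0.16 (filterByExpr with a minimum count of 10 and a minimum total of 15, TMM scaling with factors of 0.964 to 1.03, robust quasi-likelihood F-test on group). The p was adjusted by Benjamini-Hochberg over 16758 genes, and calls were made at 0.05. The biological coefficient of variation was 13.1%. No libraries were duplicates (smallest chi-square per degree of freedom 5.15). Raw counts under the filter were not tested, and precision there is limited by counting error.

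The members, gene lists and tests were chosen with earlier results of these data known. Named genes were every called member, members not called with no overlap between groups and an absolute log2 fold change of at least 1, and Tnf, Il1a, Il1b, Il6, Il10, Il18, Il33, Il34, Csf1, Csf2ra, Csf2rb and Il1rapl1 whatever their result. Shared exon bases were counted in GENCODE M21, where all 100 members were found by identifier and 89 lay at the same position.

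Alternatives were size factors of DESeq2 1.42.0, total counts, a filter at a mean of 1 CPM, none at all, limma-voom, DESeq2 and limma-trend on log2 FPKM (limma 3.58.1; pseudocount 1 or 0.1, filtered at a mean FPKM of 0.5 or unfiltered), the replicate number as a block, each library left out, and TAF15 OE 1 and Control 1 both left out.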

Additional observations from a re-analysis of the deposited data

How the results depend on the processing

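Members called higher numbered 20 with DESeq2 size factors, 26 with total counts, 32 without a filter, 25 with DESeq2 and 18 with limma-voom. They numbered 10, 11 and 5 on log2 FPKM (pseudocount 1, pseudocount 0.1, and 0.1 without a filter), 11 to 20 with 1 library left out, and 13 without both TAF15 OE 1 and Control 1. Members called lower numbered 2 with DESeq2 size factors, 4 without a filter, 4 with DESeq2, 0 in each FPKM setting, 0 to 4 with 1 library left out and 3 without both libraries. The median log2 fold change of the tested members was 0.39 on FPKM with a pseudocount of 1 and 0.48 without both libraries, and 0.55 to 0.78 with 1 library left out. On FPKM, 9 of 19, 8 of 19 and 19 of 24 called members missed the threshold, and Csf1, Il33, Il13ra1, Tnfrsf1b and Tnfrsf11a passed in all 3 settings.

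The member counts are to be read beside those over all genes, with 1562 higher and 997 lower by the edgeR test above. Higher genes numbered 1431 with DESeq2 size factors, 1838 with total counts, 2008 without a filter, 1451 with DESeq2 and 1460 with limma-voom. They numbered 1102, 1157 and 664 in the FPKM settings, 877 to 1293 with 1 library left out and 1197 without both libraries. Lower genes numbered 1126 with DESeq2 size factors, 1568 without a filter and 1298 with DESeq2. They numbered 449, 473 and 220 in the FPKM settings, 365 to 1208 with 1 library left out and 1017 without both libraries. The share of calls that were higher was 61.0%, but 72.0% with total counts, 71.1%, 71.0% and 75.1% on FPKM, 56.0% with DESeq2 size factors, 56.2% without a filter, 57.9% with the replicate block, 52.8% with DESeq2, 51.7% to 72.6% with 1 library left out (lowest without TAF15 OE 1) and 54.1% without both libraries. Calls among the IL-1 and IL-18 signalling genes numbered 5 with total counts, 5 without a filter, 1 and 0 on FPKM with a pseudocount of 1 and without a filter, and 0 to 3 with 1 library left out. TNF receptor adaptors and kinases had 5, 5 and 4 calls on FPKM, 4 without both libraries and 4 to 7 with 1 left out. NF-kB genes had 2, 3 and 0 on FPKM, 2 without both and 2 to 4 with 1 left out. JAK, STAT and SOCS genes had 2 in each FPKM setting, 2 without both and 2 to 4 with 1 left out. The log2 fold change of Csf2ra was -0.034 to 0.23 and that of Il1rapl1 -0.27 to 0.080 with 1 library left out. Csf2ra was reversed without TAF15 OE 1 (-0.034) and without both (-0.084), and Il1rapl1 without TAF15 OE 1 (0.080), without Control 2 (0.011) and without both (0.084). The causes were not tested.

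Replicate numbers 1, 2 and 3 gave correlations of deviations of 0.126, 0.0776 and 0.0871 between same-numbered libraries, so the numbers were not taken to pair the mice, although each library correlated best with its own number, a hint from the data. With the replicate block, 27 members were higher and 4 lower (1904 and 1387 genes). FPKM fold changes with a pseudocount understate low genes. The arms with 2 libraries share their spread estimate with the other arm.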
